A study of Danio rerio with 15 samples.

Results

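The genes described here encode the machinery that copies DNA and divides cells, measured by RNA sequencing of whole zebrafish larvae. They are the 80 of 24609 genes whose symbol matched a fixed pattern of replication and mitosis names, and all 80 stood in each of the 3 deposited tables. Sorted by name, 46 were counted as S-phase genes, 23 as mitotic genes and 8 as cyclins or cyclin-dependent kinases (CDKs). The S-phase genes comprise 24 of origin licensing and the helicase, 18 of the fork and 4 of nucleotide supply. Among them mcm8, mcm9 and rrm2b were placed by their names, without regard to roles outside S phase. The mitotic genes comprise 18 of the centromere and kinetochore and 5 kinases, motors or chromosome proteins, with cenpj, a centriole protein gene, placed in the former by its name. The other 3, aurkaip1, mcm3ap and primpol, share a name with these groups but were counted in neither class.

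All 15 libraries came from larvae of the TL strain at 4 days post fertilization, raised with methylene blue in the water and PTU to block pigment synthesis. The 5 groups of 3 biological replicates were wild type and tfeb; tfe3a; tfe3b triple mutants, each either left uninjected or injected with zymosan A, and rraga mutants left uninjected. Zymosan A is a yeast cell-wall particle that provokes inflammation. The genes tfeb, tfe3a and tfe3b encode transcription factors of lysosomal genes, and rraga encodes RagA, a GTPase that acts upstream of them at the lysosome. The series asked how far Tfeb and Tfe3 drive lysosomal pathways under an inflammatory challenge, with rraga mutants alongside. Larvae were viewed by confocal microscopy and frozen. No group was injected without zymosan, so injection and zymosan cannot be told apart. The lesions, the number of larvae per sample and the time from injection to freezing are not given in the sources used here.

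Before S phase, the origin recognition complex, Cdc6 and Cdt1 load the Mcm2 to Mcm7 ring onto DNA, and Cdc45 with the GINS complex turns it into the active helicase. Primase and the replicative polymerases then copy the strands, held by the PCNA clamp that replication factor C loads, with RPA coating single strands and ribonucleotide reductase supplying deoxynucleotides. In mitosis, cyclin B with Cdk1, the Aurora kinases and the kinetochore proteins align and part the chromosomes. At this larval age the retinal margin, neural progenitors, gut and blood-forming tissue are among the known sites of division. In RNA from whole larvae, fewer cells of a type and less RNA per cell cannot be told apart.

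Levels between genes were compared per length, as the FPKM of uninjected wild type from the table shared with the rraga mutants. The clamp gene pcna was highest, with 130.3, 128.5 and 140.3 FPKM, followed by mcm7 with a mean of 35.4 ± 1.43 (SD, n = 3) and rrm1, the large ribonucleotide reductase subunit, with 29.2 ± 1.67. The highest mitotic gene was mki67, which encodes the Ki-67 chromosome-surface protein, with 14.1 ± 0.330 FPKM. The tested S-phase genes had a median of 4.12 FPKM and the mitotic genes of 2.88, against 3.33 over all tested genes. The licensing genes cdc6, cdt1 and orc1 stood low, with means of 0.808, 1.61 and 0.224 FPKM. All further levels are in CPM, read counts relative to library totals scaled with edgeR's TMM factors, and serve only to compare libraries for a single gene.

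Library totals lay between 12314113 and 17566540 counts. The third zymosan-injected wild-type library stood apart from its group: the chi-square per degree of freedom between libraries was 24.8 and 22.9 against the other 2, which differed from each other by 5.58. Its mitochondrial share of counts was 9.40%, against 14.0% and 13.5%. Other groups were not uniform either. Uninjected triple-mutant replicates 1 and 2 differed by 15.9 on the chi-square measure, and replicate 2 had a mitochondrial share of 7.99%. The third rraga library differed by 10.8 and 11.6 from the others of its group, which differed from each other by 4.42. Of the mutated genes, tfe3b read between 0 and 0.859 CPM in the 6 triple-mutant libraries and between 1.15 and 3.22 in the 6 wild-type libraries. The RNA of tfeb and tfe3a did not pass the test in triple mutants (adjusted p = 0.188 to 0.994), and rraga RNA was higher in rraga mutants, at 24.9 to 26.6 CPM against 12.7 to 17.8 in uninjected wild type. Markers of neurons, liver, lens, pancreas and red cells were present, as was ckma for muscle, while the muscle gene mylpfa had a mean of 0.0988 to 0.387 CPM in the 5 groups. Some of the 7 markers tested in edgeR differed between groups (adjusted p below 0.05). In rraga mutants fabp2 (gut) and hbbe1.1 (red cells) were higher and fabp10a (liver) and cryba4 (lens) lower than in uninjected wild type. In triple mutants, uninjected or injected, hbbe1.1 was higher and ckma and cryba4 lower than in wild type. After zymosan fabp2 was higher in wild type. Over all genes 9.77% to 14.0% passed in these comparisons. The part of tissue make-up was not tested.

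Of the 80 genes, 75 passed edgeR's filter on low counts, among 19006 genes in all. The helicase paralogues mcm3l and mcm6l, the clamp loader gene rfc3 and the cyclins ccna1 and ccne1 did not pass and were not tested. For rfc3, the second zymosan-injected wild-type library held 62 counts and the other 14 libraries 0 to 9. A gene counted as called where edgeR's quasi-likelihood test gave a Benjamini-Hochberg adjusted p below 0.05 over all 19006 genes. In at least 1 of 7 comparisons, 32 of the 75 were called. The same share was not taken over all 19006 genes, so this count does not set the members apart. In single comparisons, 0.142% to 25.4% of all tested genes were called.

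After zymosan, 6 of 23 mitotic genes fell in wild type and 4 in triple mutants, and the helicase genes mcm2, mcm5 and mcm6 fell in both. The small ribonucleotide reductase subunit gene rrm2b and the chromosome 20 copy of rrm2 rose in both genotypes, while the chromosome 19 copy of rrm2 was called in neither. In wild type, 12 of the 75 tested genes fell and 2 rose, where 9.90% of all tested genes were called, 3.83% lower and 6.07% higher. In triple mutants, 11 fell and 3 rose, where 12.8% of all genes were called, 5.18% lower and 7.64% higher. Of the genes that fell, 8 did so in both genotypes: ccnb1, cenpe, kif11, mcm2, mcm5, mcm6, mki67 and prim1. The comparisons use separate libraries in each genotype. How many of all tested genes fell in both was not counted, so the 8 does not set these members apart. The count of 14 calls was 8 in wild type without injected replicate 2 and 8 in triple mutants without injected replicate 3. In these fits, calls over all genes were 1347 in wild type, against 1881 with every library, and 1682 in triple mutants, against 2437.

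In wild type the median log2 fold change after zymosan was -0.41 over the 23 mitotic genes, of which 6 fell, 0 rose and 8 had a fold change above 0. It was 0.01 over the 43 tested S-phase genes, of which 5 fell and 2 rose, against 0.00 over all tested genes. The roles within a class were not alike. The 5 kinases, motors and chromosome proteins had a median of -0.58, with 0 above 0, and the 18 centromere and kinetochore genes one of -0.09, with 8 above 0. Among S-phase genes the median was -0.32 over 22 origin and helicase genes, 0.12 over 17 fork genes and 0.75 over the 4 nucleotide supply genes, so that the origin and helicase genes lay lower than the kinetochore genes. In triple mutants the median was -0.29 over mitotic genes, of which 4 fell and 6 had a fold change above 0, and -0.30 over S-phase genes, of which 6 fell and 2 rose, against 0.00. By role it was -0.47 over kinases, motors and chromosome proteins, -0.20 over centromere and kinetochore genes, -0.38 over origin and helicase genes, -0.23 over fork genes and 0.45 over nucleotide supply genes. The difference between the classes was not tested in either genotype.

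In each library the median of a class was also taken over log2(CPM + 1) values, centred on each gene's mean of 15 libraries. For mitotic genes it was 0.21, 0.18 and 0.23 in uninjected and -0.06, -0.09 and -0.09 in zymosan-injected wild type. It was 0.19, 0.13 and 0.24 in uninjected and -0.04, 0.01 and -0.10 in zymosan-injected triple mutants. The mitotic medians thus did not overlap between injected and uninjected larvae of either genotype.

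The S-phase medians of zymosan-injected wild type were 0.13, 0.03 and -0.16, on both sides of the uninjected values of 0.10, 0.07 and 0.04. The lowest is the library that stands apart, and it leaves this comparison resting on single libraries: the S-phase median fold change was 0.10 without the third injected library and -0.16 without the first. In triple mutants the S-phase medians were -0.17, -0.13 and -0.19 after zymosan and 0.12, 0.02 and 0.14 without, with no overlap.

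**Figure D1:**
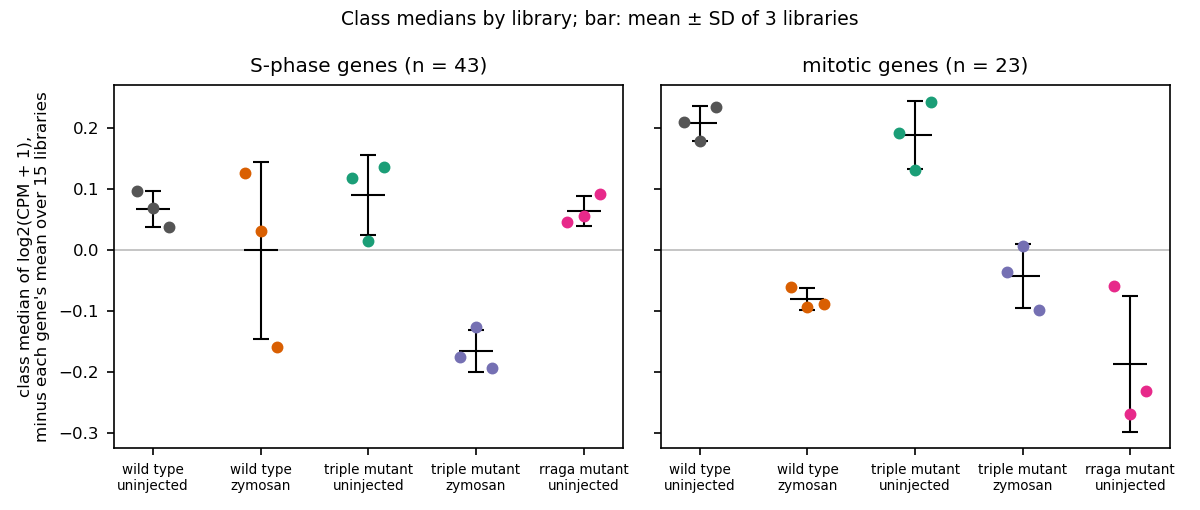
Median of log2(CPM + 1), centred on each gene's mean over 15 libraries, for the 43 tested S-phase genes (left) and 23 mitotic genes (right). Each point is a library and bars give the mean ± SD of 3. The mitotic medians of both zymosan groups and of the rraga mutants lie below those of uninjected wild type, and the S-phase medians of zymosan-injected wild type spread from -0.16 to 0.13.

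Among the helicase subunits, mcm2 read 68.7, 72.2 and 64.3 CPM in uninjected and 46.8, 43.5 and 37.4 in zymosan-injected wild type. In triple mutants it read 58.1, 63.4 and 64.2 CPM before and 34.1, 35.1 and 37.6 after zymosan. Every injected library was below every uninjected one. The log2 fold changes were -0.69 ± 0.0987 (SE, adjusted p = 4.02e-05) and -0.80 ± 0.0995 (adjusted p = 4.31e-06).

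The subunit mcm5 read 39.6, 39.7 and 41.6 CPM in uninjected and 27.7, 27.0 and 23.7 in zymosan-injected wild type. Its triple-mutant levels were 47.0, 41.6 and 51.4 CPM without and 27.7, 25.7 and 25.3 with zymosan. The groups again did not overlap, with log2 fold changes of -0.62 ± 0.110 (SE, adjusted p = 0.000440) in wild type and -0.83 ± 0.109 (adjusted p = 9.22e-06) in triple mutants.

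The other ring subunits were less uniform. mcm6 fell in wild type from a mean of 46.0 ± 2.44 CPM (SD, n = 3) to 33.8 ± 5.83 and in triple mutants from 50.3 ± 3.90 to 29.6 ± 1.94. The wild-type call of mcm6 was lost without the second uninjected or the second injected library (adjusted p = 0.0891 and up to 0.132). mcm3 fell in triple mutants, from 38.9, 49.4 and 47.5 CPM to 30.4, 21.5 and 22.5, with a log2 fold change of -0.87 ± 0.133 (SE, adjusted p = 6.60e-05). Its wild-type means were 35.4 ± 2.52 and 27.6 ± 1.92 CPM, which did not pass. The call of mcm4 in triple mutants, at -0.33 ± 0.108, was lost without any 1 of the 6 libraries (adjusted p = 0.0699 to 0.155).

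mcm7, the most abundant of the ring, did not pass in either genotype. It read 104, 100 and 63.7 CPM in the injected wild-type libraries and 88.8, 84.2 and 81.3 in the uninjected ones, so that the library that stands apart lay below the other 5. Over the 6 ring genes together, summed CPM was 334, 334 and 311 in uninjected and 296, 271 and 234 in zymosan-injected wild type, and 347, 346 and 362 against 245, 231 and 245 in triple mutants. The sum was lower in every injected library than in every uninjected library of its genotype.

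**Figure D2:**
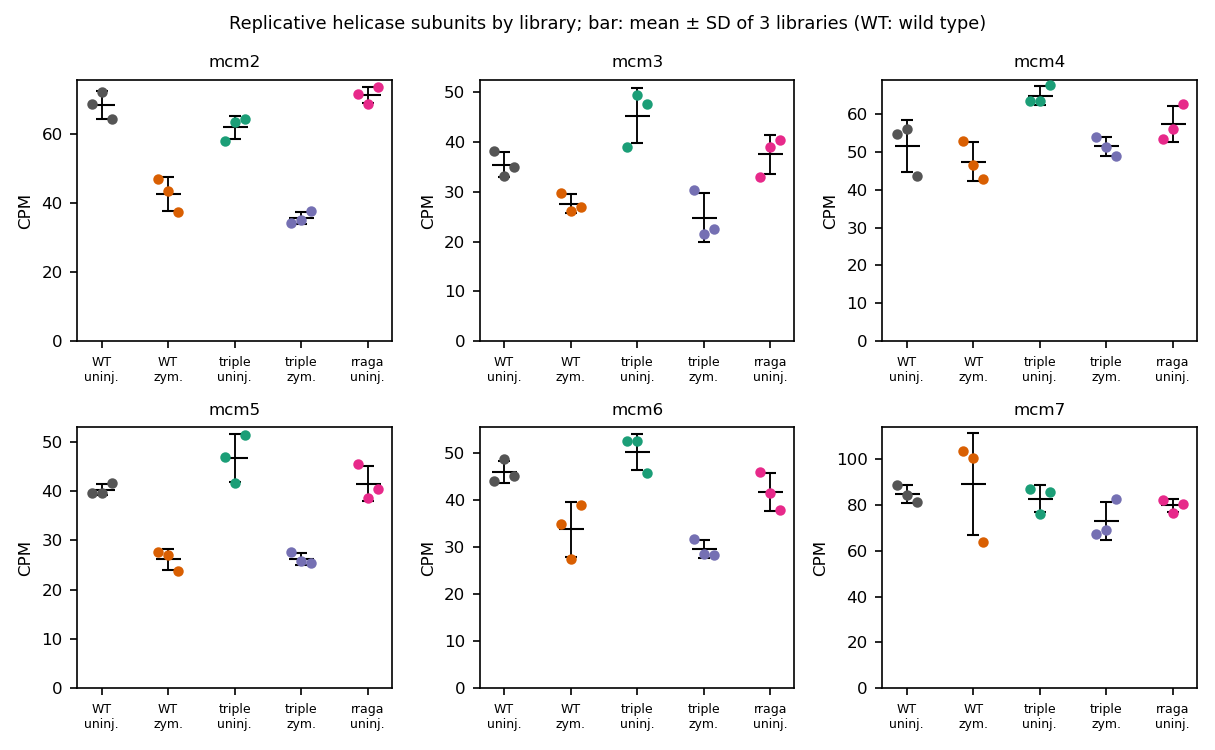
CPM of the 6 helicase ring genes in each library of the 5 groups, with the mean ± SD of 3 libraries. For mcm2 and mcm5 every zymosan-injected library lies below every uninjected library of its genotype, while mcm7 in injected wild type spans 63.7 to 104 CPM.

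The genes that load the ring, those of the origin recognition complex with cdc6 and cdt1, gave no call after zymosan. The log2 fold changes of orc1, which encodes the largest origin recognition subunit, were -0.51 ± 0.498 (SE) in wild type and -0.61 ± 0.481 in triple mutants. Those of cdc6 were -0.28 ± 0.423 and -0.30 ± 0.410. The Cdt1 gene cdt1 lay on the other side of 0, at 0.60 ± 0.276 and 0.51 ± 0.269, without passing (adjusted p = 0.197 and 0.249). The errors of orc1 and cdc6 are wide enough to hold the size of the Mcm changes.

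At the fork, the primase subunit gene prim1 fell in both genotypes, by 0.57 ± 0.181 (SE, log2) in wild type and by 0.62 ± 0.182 in triple mutants. The first of these calls was lost without any 1 of the 6 libraries (adjusted p = 0.0533 to 0.148), and the second in 4 of 6 such fits, without uninjected replicate 1 or 3 or injected replicate 2 or 3 (up to 0.139). rfc1, the large clamp loader subunit, fell in wild type by 0.54 ± 0.159, a call lost without uninjected replicate 1 or 3 or injected replicate 1 or 2 (up to 0.164). The clamp gene pcna read 222, 209 and 166 CPM in zymosan-injected and 194, 191 and 207 in uninjected wild type, which overlap. In triple mutants pcna read 156, 150 and 172 CPM after zymosan and 198, 168 and 193 without, and did not pass (adjusted p = 0.170).

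Of the 4 nucleotide supply genes, 2 rose in each genotype and 0 fell. Ribonucleotide reductase pairs the large subunit of rrm1 with a small subunit from rrm2, or from rrm2b, whose mammalian counterpart is induced by p53. Symbol rrm2 stands on 2 genes of GRCz11, on chromosome 19 at 47564890 to 47571808 (ENSDARG00000078069) and on chromosome 20 at 29492469 to 29499426 (ENSDARG00000020711). If the copies are near-identical, reads may have been split between them, so that levels of each copy are uncertain and their sum is given as well.

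The chromosome 20 copy of rrm2 read 40.0, 43.2 and 38.3 CPM in uninjected and 64.6, 65.4 and 71.0 in zymosan-injected wild type. It read 65.5, 63.4 and 75.3 CPM in uninjected and 111, 97.2 and 97.9 in injected triple mutants. It rose with zymosan in both genotypes without overlap, by 0.73 ± 0.113 (SE, log2, adjusted p = 0.000106) and 0.58 ± 0.110 (adjusted p = 0.000691). The level in uninjected triple mutants was thereby close to that of injected wild type, a pair of groups that was not tested. The chromosome 19 copy did not pass after zymosan, at 0.77 ± 0.262 (SE, log2, adjusted p = 0.0653) in wild type, where the groups did not overlap, and 0.31 ± 0.366 (adjusted p = 0.666) in triple mutants, where they did. In wild type this copy was called higher without the filter on low counts, and without injected replicate 1 or 3.

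rrm2b read 6.54, 5.13 and 9.06 CPM in uninjected and 14.3, 13.7 and 14.0 in injected wild type, without overlap. In triple mutants it had 88, 97 and 77 counts without and 148, 119 and 152 with zymosan, or means of 5.76 ± 0.339 and 9.98 ± 1.67 CPM (SD, n = 3), and the CPM of the groups did not overlap. The log2 fold changes were 1.02 ± 0.200 (SE, adjusted p = 0.00134) and 0.79 ± 0.203 (adjusted p = 0.0101). The triple-mutant call was lost, at an adjusted p of up to 0.0502, without injected replicate 1 or 3. rrm1 stayed within 76.2 to 114 CPM in the 12 wild-type and triple-mutant libraries and was not called.

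**Figure D3:**
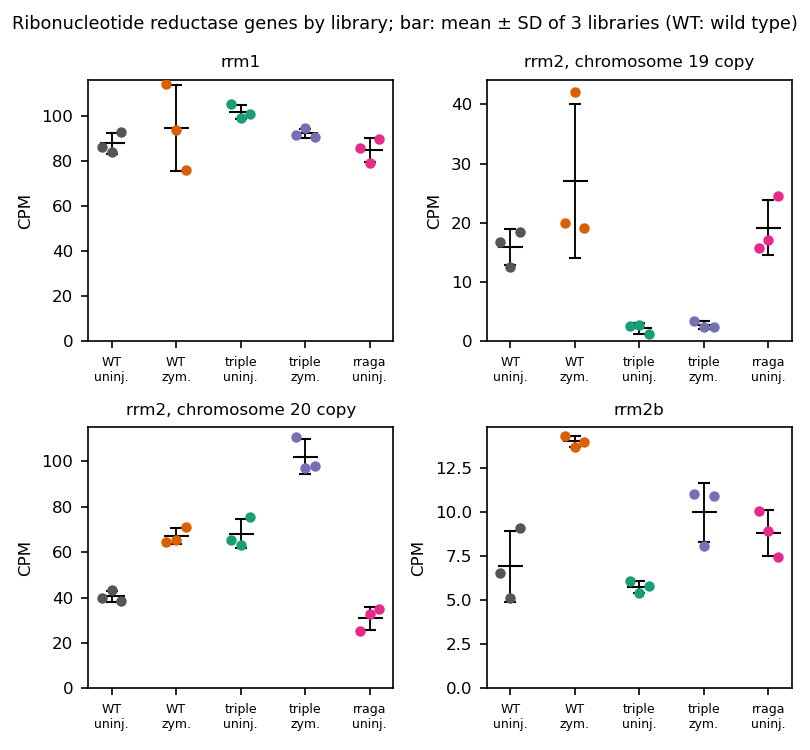
CPM of the 4 ribonucleotide reductase genes in each library, with the mean ± SD of 3 libraries. The chromosome 19 copy of rrm2 lies between 1.13 and 3.42 CPM in the 6 triple-mutant libraries, and the chromosome 20 copy and rrm2b are higher in zymosan-injected than in uninjected larvae of both genotypes.

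Of the mitotic genes, mki67 read 122, 119 and 115 CPM in uninjected and 63.1, 74.8 and 81.8 in zymosan-injected wild type. In triple mutants it read 147, 166 and 166 CPM without and 102, 102 and 93.1 with zymosan. Each injected group lay wholly below its uninjected group, at log2 fold changes of -0.70 ± 0.107 (SE, adjusted p = 8.97e-05) and -0.69 ± 0.106 (adjusted p = 7.25e-05).

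cenpe, a kinesin motor of the kinetochore, read 43.4, 45.6 and 45.3 CPM in uninjected and 26.9, 29.2 and 24.2 in injected wild type. In triple mutants it read 44.9, 43.1 and 46.9 CPM without and 28.8, 31.4 and 28.4 with zymosan. The change was -0.74 ± 0.106 (SE, log2, adjusted p = 3.70e-05) and -0.61 ± 0.105 (adjusted p = 0.000285), with no overlap in either genotype.

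The cyclin B1 gene ccnb1, the mitotic partner of Cdk1, read 15.3, 20.9 and 18.2 CPM in uninjected and 9.03, 12.04 and 10.8 in injected wild type. Its triple-mutant levels were 20.5, 19.6 and 23.0 CPM without and 15.6, 11.2 and 11.8 with zymosan. Neither pair of groups overlapped, and the fall was 1.70-fold (adjusted p = 0.00517) and 1.63-fold (adjusted p = 0.00627). For cdk1 itself the log2 fold changes were -0.11 ± 0.285 (SE) and -0.52 ± 0.290, neither called.

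Further mitotic genes fell in wild type: aurka, the spindle-pole Aurora kinase, by 0.72 on the log2 scale, the inner kinetochore gene cenpi by 0.71, the bipolar spindle motor kif11 by 0.47 and the checkpoint kinase bub1 by 0.46. In triple mutants kif11 fell by 0.37 and top2a, which untangles sister chromatids, by 0.47. These 6 calls did not hold in every fit that left out 1 library, though each log2 fold change stayed below 0. Leaving out any 1 of 6 libraries ended that of aurka (adjusted p = 0.0541 to 0.139), at log2 fold changes of -0.80 to -0.62. That of cenpi was lost without uninjected replicate 1 or 3 or injected replicate 1 or 2 (up to 0.109). The wild-type call of kif11 was lost without injected replicate 2 or 3 (up to 0.0783). That of bub1 was lost without uninjected replicate 3 or injected replicate 3 (up to 0.0851). Each of the triple-mutant calls was lost in 5 of 6 fits (up to 0.176 for kif11 and 0.139 for top2a). The calls of mki67, cenpe, ccnb1, mcm2, mcm5 and the chromosome 20 copy of rrm2 held in all 6 such fits in both genotypes.

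A difference between genotypes in the response to zymosan was not called for any of the 75 genes. The interaction test called 0 of 75 in edgeR and 0 in DESeq2, where edgeR called 0.142% of all tested genes, 0.110% negative and 0.0316% positive. In edgeR 4 of the 75 had an unadjusted p under 0.05, as had 1093 of all 19006 genes. The number of members is thus near the share over all genes. These 4 were prim2 at -0.83 ± 0.270 (SE, log2), mcm3 at -0.51 ± 0.188, rpa1 at -0.37 ± 0.161 and aurkb at 0.68 ± 0.293, where a positive value means a higher fold change in triple mutants. The median interaction was -0.23 over the 43 S-phase genes, of which 8 were above 0, and 0.01 over the 23 mitotic genes, of which 12 were above 0. Over all 19006 genes the median was 0.00 and 9565 were above 0. The S-phase median was -0.16 without the first and -0.28 without the third injected wild-type library.

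Genes listed as markers of populations that can hold dividing cells were read in the same libraries. RNA of whole larvae does not show which cells express them, or whether those cells divide. The genes listed for the retinal margin, rx1, rx2 and six3b, summed to 77.9 to 82.1 CPM in uninjected and 58.1 to 66.2 in zymosan-injected wild type. In triple mutants these genes summed to 79.4 to 92.1 against 59.2 to 66.9 CPM. Of these, rx2 fell in both genotypes and six3b in wild type. The 12 neural progenitor markers summed to 1057 to 1170 CPM in uninjected and 1071 to 1265 in injected wild type, and only ccnd1, the cyclin D1 gene, was called lower, in both genotypes. The 10 germ-cell markers summed to 1.91 to 6.33 CPM over all 15 libraries, and the thymus markers to 1.36 to 5.10. Blood progenitor markers summed to 51.4 to 57.1 CPM in uninjected and 47.5 to 54.3 in injected wild type. The 7 tested had a median log2 fold change of -0.64 in wild type and -0.18 in triple mutants, with 0 called in either. The part of any of these populations in the zymosan result was not tested.

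Outside the name pattern, listed cell-cycle genes were counted in the same fits, where 3.83% of all tested genes were called lower and 6.07% higher in wild type, and 5.18% and 7.64% in triple mutants. With 3 calls in each genotype among 17 tested genes of G1 cyclins, kinases and their brakes, cdkn1bb and cdkn1d, of the family of CDK inhibitors, rose in both genotypes, and ccnd1 fell in both. The rises were 0.53 and 0.66 (log2) in wild type and 0.44 and 0.51 in triple mutants, and ccnd1 fell by 0.32 and 0.48. Of 19 E2F and DREAM regulators, the transcription factors of cell-cycle genes, E2F2 fell in both genotypes, by 1.18 and 1.12, and e2f3, tfdp2 and rbl2 fell in triple mutants. The single fall in wild type is near the share over all genes. Of 41 other mitosis genes, 6 fell in wild type and 3 in triple mutants, the latter near the share over all genes, and 0 rose in either. The spindle assembly gene tpx2, the anaphase activator cdc20 and the microtubule binder nusap1 fell in both, cdc20 by 0.96 and 0.57 and tpx2 by 0.68 in each. Of 23 other S-phase genes, dhfr rose and msh6 fell in wild type, each near the share over all genes, and tyms, uhrf1, unga and msh6 fell in triple mutants.

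**Figure D4:**
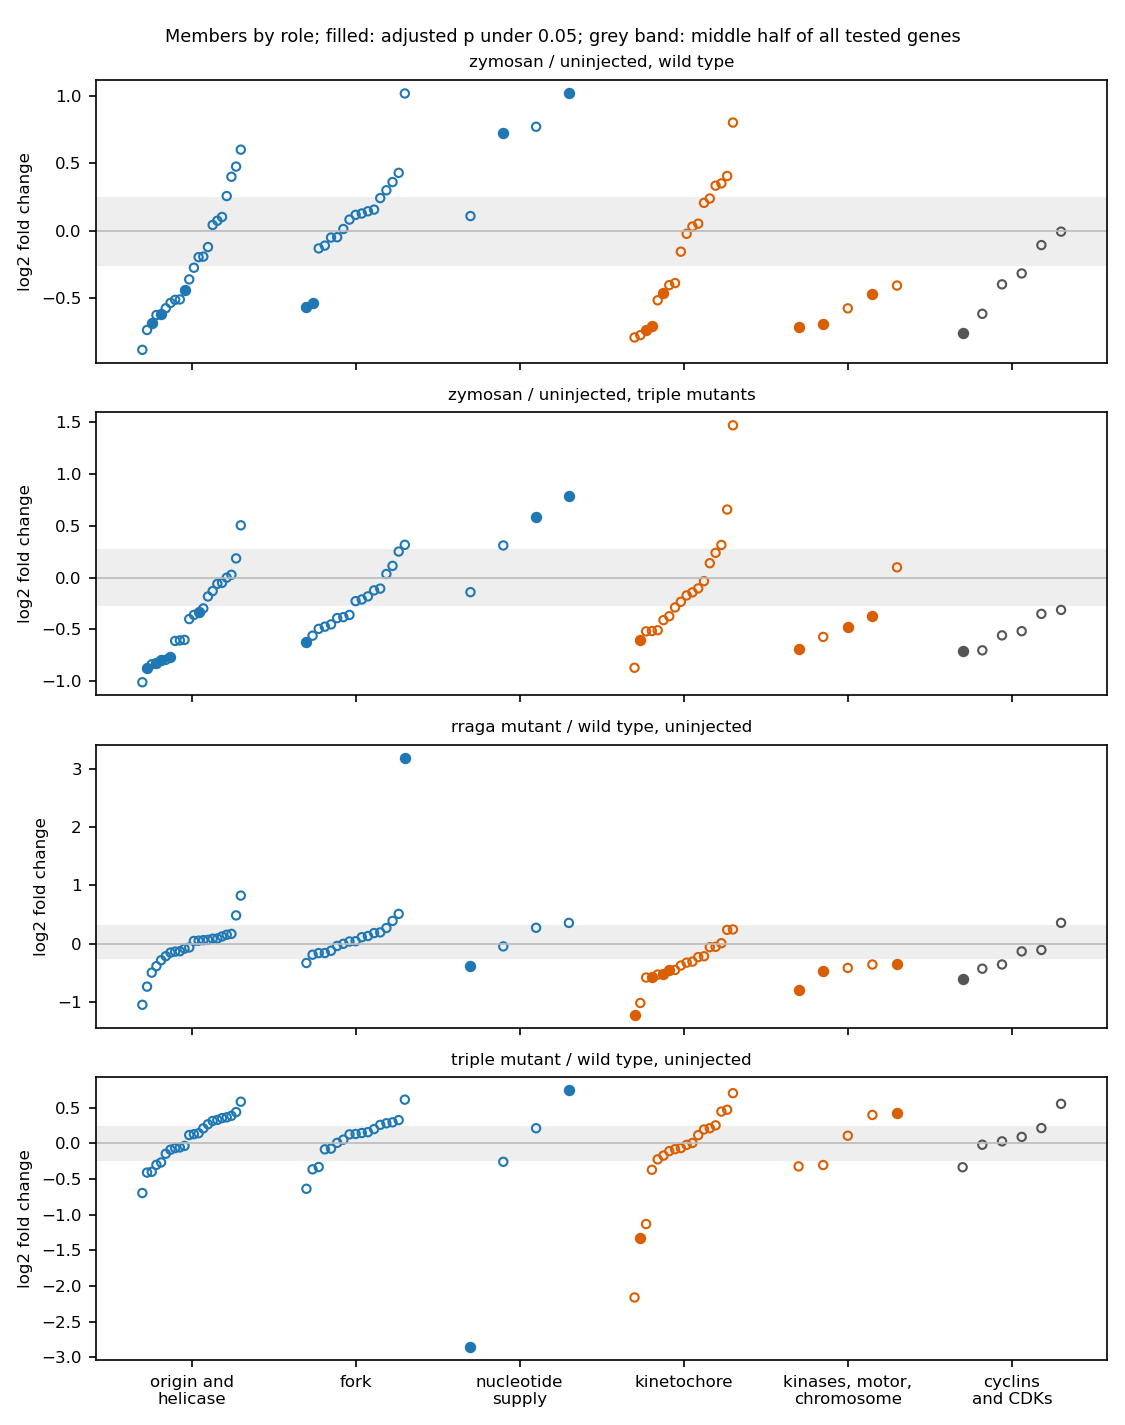
Log2 fold change of each tested gene in 4 comparisons, grouped by role and ordered by value within a group. Filled points passed an adjusted p under 0.05 and the grey band holds the middle 50% of all tested genes. In rraga mutants, 20 of 23 mitotic genes lie below 0 and the S-phase genes lie on both sides.

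Between uninjected rraga mutants and uninjected wild type, 7 of 23 mitotic genes fell and the chromosome 20 copy of rrm2 was the single S-phase gene that fell. Of the 75 tested genes 9 fell, and pole3, which passed the filter on low counts through the rraga libraries, was called higher, where 14.0% of all genes were called, 6.41% lower and 7.58% higher. Of the mitotic genes 0 rose and 3 had a fold change above 0, and the remaining fall was that of ccna2. The median log2 fold change was -0.38 over mitotic genes and 0.04 over S-phase genes, against 0.00 over all. In single libraries the mitotic median was -0.06, -0.27 and -0.23 in rraga mutants, below 0.21, 0.18 and 0.23 in wild type, and the S-phase median was 0.05, 0.06 and 0.09 beside 0.10, 0.07 and 0.04.

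cenpe read 28.0, 31.7 and 33.7 CPM in rraga mutants, below all of 43.4, 45.6 and 45.3 in wild type. Its log2 fold change was -0.52 ± 0.106 (SE, adjusted p = 0.00148). The Aurora kinase gene aurkb, of the chromosomal passenger complex, read 7.37, 6.70 and 7.83 CPM against 15.3, 12.3 and 10.5, also without overlap, a 1.75-fold fall (adjusted p = 0.0118). The spindle checkpoint gene bub1ba read 2.29, 1.55 and 2.59 CPM against 4.49, 4.00 and 6.62, and fell 2.34-fold (adjusted p = 0.00893).

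Cyclin A2, which acts from S phase into mitosis, was also lower: ccna2 read 15.7, 14.9 and 16.7 CPM in rraga mutants and 24.5, 27.9 and 19.1 in wild type. The groups did not overlap, at a log2 fold change of -0.60 ± 0.151 (SE, adjusted p = 0.00866). ndc80, of the microtubule-binding kinetochore complex, fell by 0.58 on the log2 scale, top2a by 0.47, bub1 by 0.46 and mki67 by 0.35. For mki67 the libraries read 86.1, 86.2 and 107 CPM against 122, 119 and 115.

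The mitotic median stayed below 0 when 1 library was left out, while the count of mitotic calls fell. It was 1 of 23 without the second rraga library, 3 without the first wild-type library, 4 without the second or the third, 5 without the first rraga library and 6 without the third, at medians between -0.37 and -0.46. Over all 75 genes it was 10 with every library, pole3 included, 4 without the second rraga library and 5 without the first or the second wild-type library. Calls over all tested genes fell as well, from 2659 with every library to 1926, 1969 and 1850 in these fits. They lay between 1838 and 2642 over all 6 fits. Of the 9 falls only that of cenpe held in all 6 fits. That of mki67 held in 1 (adjusted p up to 0.135), those of ndc80 and top2a in 2 (up to 0.173), and those of aurkb, bub1 and bub1ba in 4 (up to 0.0825).

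**Figure D5:**
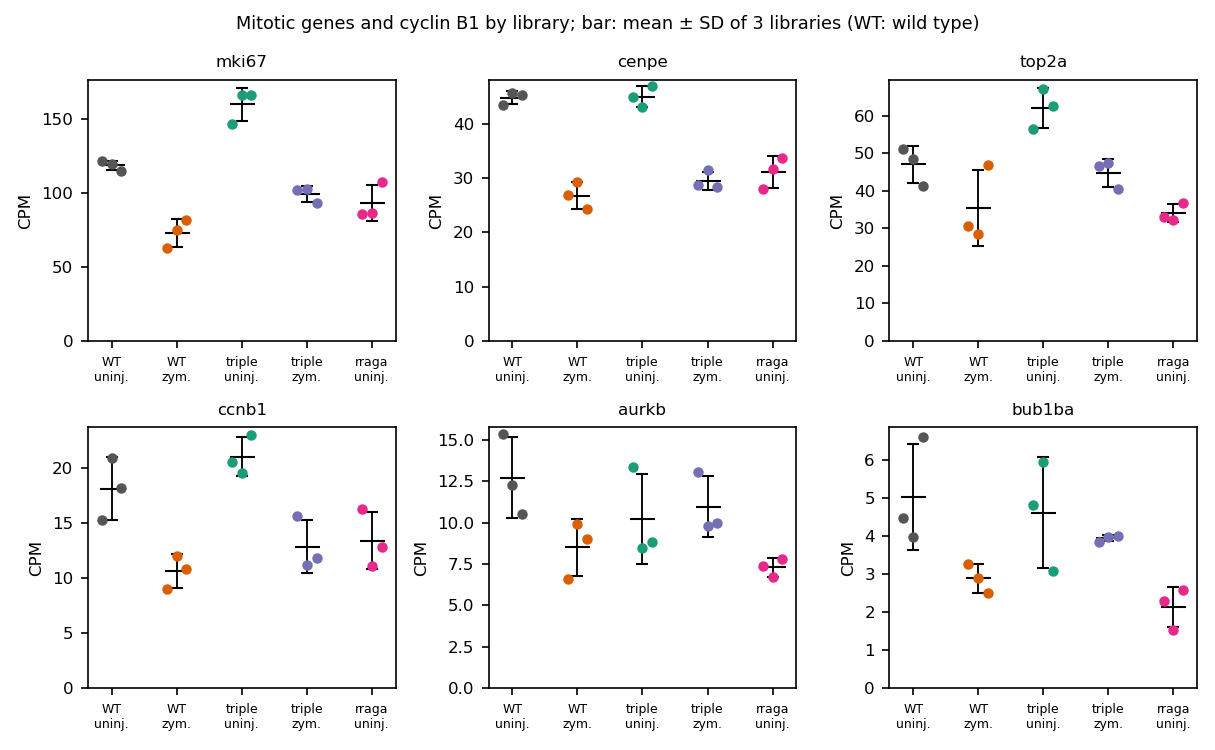
CPM of mki67, cenpe, top2a, ccnb1, aurkb and bub1ba in each library, with the mean ± SD of 3 libraries. Uninjected wild type lies above the rraga mutants without overlap for each gene but ccnb1, and above zymosan-injected wild type for each but top2a.

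In S phase, the genes of the helicase ring gave no call in rraga mutants: the 6 summed to 332, 321 and 335 CPM, beside 334, 334 and 311 in uninjected wild type, which overlap. pcna read 197, 199 and 181 CPM beside 194, 191 and 207, which overlap. The chromosome 20 copy of rrm2 fell, from a mean of 40.5 ± 2.48 to 30.9 ± 4.99 CPM (log2 fold change -0.39 ± 0.116, SE, adjusted p = 0.0247), a call lost without the first or second wild-type or the first rraga library (up to 0.167). Together the copies summed to 41.1, 49.8 and 59.2 CPM beside 56.7, 55.7 and 56.7, which overlap.

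The polymerase epsilon subunit gene pole3, a histone-fold protein, had 30, 34 and 35 counts in rraga mutants, or 2.15, 2.50 and 2.51 CPM, and 1, 6 and 3 counts in uninjected wild type, 0.0641 to 0.452 CPM. The other 9 libraries held between 3 and 15 counts. Since the gene entered the test through the group where it is high, its levels are given as a description.

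Of the 41 other mitosis genes outside the pattern, 8 fell and 0 rose in rraga mutants, where 6.41% of all tested genes were called lower and 7.58% higher, and their median was -0.30 (log2). Those that fell were nusap1 at -0.99 ± 0.148 (SE), ube2c at 2 gene identifiers, knl1, cdca8, mastl, kif22 and tpx2. Among 23 other S-phase genes chaf1a rose and DUT fell, a number near the share over all genes, and 0 of 19 E2F and DREAM regulators and 0 of 17 G1 genes were called in edgeR. Neural progenitor markers summed to 953 to 994 CPM in rraga mutants and 1057 to 1170 in wild type, and 4 of 12 fell, her4.1, her4.2, fabp7a and pax6a, against the same 6.41%. The same genes listed for the retinal margin summed to 59.2 to 68.0 CPM against 77.9 to 82.1, and rx2 and six3b fell. Blood progenitor markers summed to 43.1 to 52.8 CPM against 51.4 to 57.1, and 1 of 7 tested, gata2a, fell. Germ-cell markers, low in all libraries, summed to 5.31 to 6.33 CPM against 3.78 to 4.90, and 1 of 5 tested, sycp1, was called higher. Thymus markers summed to 3.72 to 5.10 CPM against 2.50 to 3.92, with 0 of 2 tested called. The part of any of these populations in the mitotic result was not tested.

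Uninjected triple mutants differed from uninjected wild type in few of these genes. Of 75 tested, 2 fell and 2 rose, where 9.77% of all genes were called, 5.84% lower and 3.93% higher. The median log2 fold change was 0.13 over S-phase and -0.02 over mitotic genes, against 0.00 over all. After zymosan 6 fell and 3 rose, where 11.9% of all were called, 6.66% lower and 5.21% higher, at medians of -0.16 and 0.09. The same 4 genes were called in both conditions and in the same direction: cenpf and the chromosome 19 copy of rrm2 were lower, and mki67 and the chromosome 20 copy of rrm2 higher. How many of all genes were called in both conditions was not counted.

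The chromosome 19 copy of rrm2 read 2.63, 2.67 and 1.13 CPM in uninjected triple mutants and 16.7, 12.5 and 18.4 in uninjected wild type. After zymosan it read 3.42, 2.37 and 2.36 CPM, against 19.1 to 42.1 in wild type, where the second library was the highest. All 6 triple-mutant libraries were below all 6 wild-type libraries, a 7.25-fold (adjusted p = 9.31e-07) and 9.97-fold (adjusted p = 6.12e-08) difference. The chromosome 20 copy went the other way, at 1.68-fold (adjusted p = 6.65e-05) and 1.52-fold (adjusted p = 0.000525) higher.

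The share of the chromosome 19 copy in the sum of both was 28.1% ± 5.11 (SD, n = 3) and 28.0% ± 9.74 in uninjected and injected wild type, and 3.13% ± 1.44 and 2.58% ± 0.361 in triple mutants. It was 38.1% ± 3.48 in rraga mutants. The sum was 56.4 ± 0.575 CPM in uninjected wild type and 70.2 ± 5.51 in uninjected triple mutants, and 94.1 ± 11.98 and 105 ± 8.29 after zymosan.

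cenpf, a kinetochore and nuclear matrix protein gene, read 1.94, 9.14 and 3.00 CPM in uninjected triple mutants and 14.2, 10.2 and 11.9 in wild type. The second triple-mutant library lay close to the lowest wild-type library. The call was lost without wild-type replicate 1 or triple-mutant replicate 1 or 3 (adjusted p up to 0.0832), and the log2 fold change of -1.33 moved to -2.29 without the second triple-mutant library. After zymosan cenpf read 4.91, 5.21 and 2.94 CPM against 11.8, 10.9 and 13.0, a 2.73-fold difference (adjusted p = 0.00750) that held in all 6 fits that leave out a library.

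mki67 was higher in triple mutants in each condition, by 0.43 ± 0.105 and 0.44 ± 0.107 (SE, log2, adjusted p = 0.00905 uninjected and 0.00747 injected), the latter lost without the first injected wild-type library (adjusted p = 0.0561). After zymosan rpa2, a subunit of the single-strand binding protein, was lower at 14.2, 11.6 and 14.6 CPM against 24.0, 20.9 and 18.3 (adjusted p = 0.00221). Lower calls were also made for pole4, gins4 and pcna and a higher one for cenpi. Of the 9 calls after zymosan, 4 were left without injected wild-type replicate 1, 5 without injected triple-mutant replicate 2 and 6 without triple-mutant replicate 1, and 14 members were called without injected wild-type replicate 3. Calls over all genes in these fits were 1541, 1545, 1644 and 3163, against 2255 with every library. The calls of pcna and cenpi held in 1 of 6 fits that leave out a library.

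Because mutant lines can differ from wild type along whole chromosome segments, the neighbours of each called gene within 1 Mb were counted. Beside the 4 genes called in uninjected triple mutants, 2.78% to 8.11% of tested neighbours were called, where 9.77% of all genes were. After zymosan the share was 2.78% to 14.3% at 8 of the 9 genes, where 11.9% of all were. At pole4 it was higher, with 10 of 50 neighbours called on chromosome 11, which also carries tfeb and tfe3b. Within 0.5 Mb it was 24.1% at pole4, 22.2% at cenpf and 18.8% at rpa2. The same 1 Mb count in rraga mutants was added after seeing the data. There the share was 9.30% to 31.0%, where 14.0% of all genes were called. The highest were at bub1ba, with 13 of 42, and ccna2, with 13 of 48. ccna2 and aurkb lie on chromosome 14 with rraga, at 32.3 and 13.8 Mb from it. The genes ndc80, mki67 and top2a, all called lower in rraga mutants, lie near each other on chromosome 12. They start at 10353333, 10366617 and 10706772, so that each counts among the neighbours of the others. The part of such segments in these calls was not tested.

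Listed genes outside the pattern were also counted in uninjected triple mutants against uninjected wild type. Of 41 other mitosis genes, of 23 other S-phase genes and of 19 E2F and DREAM regulators, 1 each was higher and 1 lower. Of 17 G1 genes 1 was higher, ccnd1 by 0.34 (log2). Over all genes 3.93% were called higher and 5.84% lower, so these numbers are near or below that share. Uninjected triple mutants had 0, 0 and 0 counts of dlgap5, a spindle protein gene, where uninjected wild type had 114, 131 and 89. The S-phase gene tipin was higher by 1.32. chtf18, of an alternative clamp loader, had 0, 1 and 1 counts against 64, 58 and 47. The condensin gene ncapg had 10, 21 and 13 counts against 0, 1 and 1. The cell-cycle transcription factor genes mybl2b and foxm1 went opposite ways, with mybl2b higher by 0.68 (log2) and foxm1 lower by 0.82.

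Uninjected rraga mutants were also set against uninjected triple mutants. Of 75 genes 13 were lower and 7, pole3 among them, higher in rraga mutants, where 25.4% of all tested genes were called, 11.5% lower and 13.9% higher. Mitotic genes had a median log2 difference of -0.47 and S-phase genes of -0.04, against 0.00. mki67 was 1.71-fold lower (adjusted p = 9.21e-06) and top2a 1.83-fold lower (adjusted p = 9.81e-05), each without overlap. Of the 18 centromere and kinetochore genes 6 were lower, among them nuf2, ndc80, bub1bb and bub1ba, and 1, cenpf, was higher. The cyclins ccna2 and ccnb1 and the helicase paralogue mcm8 were also lower. Higher were gins4, of the GINS complex, rpa2 and the chromosome 19 copy of rrm2. The chromosome 20 copy of rrm2 was lower, at log2 differences of -1.23 to -1.02 in the 6 fits that leave out 1 library, all called. Together the copies summed to 41.1, 49.8 and 59.2 CPM in rraga mutants, below 68.1, 66.0 and 76.4 in triple mutants. Leaving out 1 library, the calls of nuf2 and ndc80 held in 2 of 6 fits, and those of bub1bb and mcm8 in 3. Those of bub1ba and rpa2 held in 4, and that of cenpf in 5, at log2 differences of 0.90 to 2.23. The count of called members was 12 without the second rraga library and 14 without the second triple-mutant library. In these fits, calls over all genes were 3687 and 3533, against 4831 with every library.

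No call was made in any of the 7 comparisons for cdc6, cdt1, cdc45, orc1, pold1, pole, rpa1, mcm7, rrm1, ccne2, cdk1 or cdk2.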

How the data were processed

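RNA-seq libraries of 15 zebrafish samples were analysed from 3 tables deposited by the authors, joined by gene identifier. Per the submitters' processing notes, HISAT2 2.0.5, StringTie 1.3.3b, featureCounts 1.5.0 and GRCz11 were used. Whether strand was used is not given, so overlapping genes cannot be told apart. The deposited raw counts per gene were tested. The deposited FPKM, made by the authors, served only to compare levels between genes of uninjected wild type, and the deposited signal, counts scaled by a library size factor, was not used. Uninjected wild type stands in 2 tables with 67893 of 67893 values equal.

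Counts of all groups were fitted together in edgeR 4.0.16 (R 4.3.3), with TMM factors (0.850 to 1.19), filterByExpr, 1 mean per group and no block, and were tested by quasi-likelihood with Benjamini-Hochberg adjustment over 19006 genes. The fit was tested on simulated data with known changes. Class medians carry no test. The members and lists were chosen with earlier results of these data known. Named genes are those called in any comparison plus a list of core genes. 2 of these, cenpa and plk1, are not analysed here. Gene identifiers were looked up in a table of names, where 80 of 80 were found and 78 of the 80 symbols were the same. The p-values cover only the variation among these libraries. Counting error limits genes with few counts. A listed marker gene is not reported here.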

Additional observations from a re-analysis of the deposited data

How the results depend on the processing

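DESeq2 1.42.0, DESeq2-type size factors, no filter on low counts, a filter of 1 CPM in 3 libraries, fits on only the libraries compared, and cyclins and CDKs added to the classes were tried. Each moved the class medians by less than the spread of library medians, an SD of 0.075 (log2) for S-phase and 0.062 for mitotic genes. Counts of called members stayed within 1.5 times of those reported. Exceptions were 7 members called in uninjected triple mutants against wild type with only those 6 libraries, and 1 median. With cyclins and CDKs added, the mitotic median after zymosan in triple mutants was -0.37 instead of -0.29, in the same direction. For the interaction over all genes, 27 were called, 54 in DESeq2 and 77 without the filter. The call of pcna in injected triple mutants was lost with other size factors, with the CPM filter and with only the libraries compared. That of cenpi there was lost without the filter and with only the libraries compared. Fits on only the libraries compared also ended the calls after zymosan of cenpi in wild type and aurkaip1 in triple mutants. That of bub1 in rraga against triple mutants was lost without the filter.

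Leaving out 1 library in turn gave 3 to 4 called members in uninjected and 4 to 14 in injected triple mutants against wild type, 8 to 12 after zymosan in wild type (8 without injected replicate 2), 8 to 11 in triple mutants (8 without injected replicate 3), 0 for the interaction, 4 to 9 in rraga mutants against wild type and 12 to 18 against triple mutants. Calls over all genes in these fits were 1242 to 1634, 1541 to 3163, 1299 to 2201, 1682 to 2007, 16 to 50, 1838 to 2642 and 3533 to 4802. With every library they were 1856, 2255, 1881, 2437, 27, 2659 and 4831. In that order, the S-phase median log2 fold changes ran from 0.07 to 0.16, -0.23 to -0.09, -0.16 to 0.10, -0.30 to -0.18, -0.29 to -0.16, 0.00 to 0.06 and -0.12 to -0.0112. The mitotic medians ran from -0.02 to 0.03, 0.04 to 0.15, -0.46 to -0.28, -0.37 to -0.23, -0.0555 to 0.10, -0.46 to -0.37 and -0.50 to -0.37.

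The replicate numbers did not pair the samples: deviations of same-numbered libraries correlated between -0.10 and 0.07. With the number as a replicate block, 4, 8, 12, 12, 0, 11 and 20 members were called in the same order. It ended the calls of aurka and prim1 after zymosan in wild type, of mcm4 and aurkaip1 after zymosan in triple mutants and of pcna in injected triple mutants against wild type, so that prim1 was called in 1 genotype, and it added kif11 in rraga mutants against wild type. Within 0.5 Mb of pole4, 7 of 29 neighbours were called. Promoter motifs were not run, since no promoter sequences were used here. Depth limits the low licensing genes and the 5 untested members, and reads carry no molecular identifiers.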
